A study of Mus musculus with 24 samples.

Results

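The 6 genes examined here belong to the FGF-ERK signalling pathway, and were read for the binding of RNA polymerase II pausing and elongation factors in mouse embryonic stem cells: the ligand gene Fgf4, the feedback inhibitor genes Dusp6, Spry2 and Spry4, and the transcription factor genes Etv4 and Etv5. The members are the rows of the deposited peak lists that overlapped a fixed mm10 window around each gene, and were chosen by position with no use of a measured value. The windows, in kb, were 144856 to 144872 on chromosome 7 for Fgf4, 99258 to 99272 on chromosome 10 for Dusp6, and 105887 to 105902 on chromosome 14 for Spry2. They were 38581 to 38606 on chromosome 18 for Spry4, 101765 to 101790 on chromosome 11 for Etv4, and 22376 to 22445 on chromosome 16 for Etv5. In the 6 lists together, 165 of 1811308 rows overlapped a window, 22 to 34 per list, and 18 of the 165 ran past a window's edge.

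Chromatin immunoprecipitation and sequencing (ChIP-seq) had been done on E14 cells, a mouse embryonic stem cell line grown in serum with LIF, whose genotype is labelled Nelfb deg and whose NELFB protein is detected through an HA tag. All 6 libraries are labelled Control and carry that same genotype, with 2 libraries each for NELFB:HA (HA-tag antibody), NELFE (a second subunit of the negative elongation factor, NELF) and SPT5 (a subunit of DSIF, the DRB sensitivity-inducing factor, with an antibody labelled Anti-DSIF). The culture protocol names DMSO as the alternative to dTAG-13, a compound that degrades tagged proteins. The treatment arm of the series received 500 nM dTAG-13 for 30 min, and these and the naïve and EpiLC samples are not analysed here. The labels do not say whether the paired libraries came from separate cultures, so their spread, and any p-value from it, may be technical. Between 27324697 and 62312558 ChIP tags per library remained after filtering.

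FGF4 is a growth factor that embryonic stem cells secrete and respond to. It acts through FGF receptors and the RAS, RAF, MEK and ERK kinases, and this signal is known for moving the cells out of the naive state. ERK activity induces its own inhibitors: DUSP6 is a phosphatase that inactivates ERK, and the Sprouty proteins SPRY2 and SPRY4 dampen receptor signalling. ETV4 and ETV5 are ETS-family transcription factors made in response to FGF. NELF holds RNA polymerase II shortly after it starts a transcript, while SPT5 is part of the paused complex and afterwards travels with the elongating polymerase.

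The 250 bases before the annotated start are shown for the 4 genes that RefSeq's promoter table (build GRCm38.p6, the assembly of mm10) holds, because it lay inside a peak region of every library at each of them. Capitals mark matches, on either strand, to 4 motifs. The first was TATATA, a run like the TATA box found shortly before some starts. Another was CCAAT, the CAAT box. The GC box was searched as GGGCGG. The last, CCGGAA, holds the core that ETS factors bind. The sequences, 5′ to 3′ along the gene, lie at chr7:144861136-144861385 (plus strand), chr10:99262981-99263230 (plus), chr14:105896820-105897069 (minus) and chr16:22439571-22439820 (minus). For Etv5 the outermost of its annotated starts was used.
Fgf4: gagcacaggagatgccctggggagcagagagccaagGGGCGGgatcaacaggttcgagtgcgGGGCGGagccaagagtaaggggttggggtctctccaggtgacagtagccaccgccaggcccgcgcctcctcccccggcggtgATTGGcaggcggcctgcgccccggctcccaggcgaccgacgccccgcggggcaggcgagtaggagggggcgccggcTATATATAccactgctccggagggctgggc
Dusp6: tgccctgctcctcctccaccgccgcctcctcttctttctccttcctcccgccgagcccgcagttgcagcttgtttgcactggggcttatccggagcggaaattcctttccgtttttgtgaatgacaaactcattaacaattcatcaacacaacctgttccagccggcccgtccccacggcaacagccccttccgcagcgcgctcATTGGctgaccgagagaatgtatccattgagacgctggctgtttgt
Spry2: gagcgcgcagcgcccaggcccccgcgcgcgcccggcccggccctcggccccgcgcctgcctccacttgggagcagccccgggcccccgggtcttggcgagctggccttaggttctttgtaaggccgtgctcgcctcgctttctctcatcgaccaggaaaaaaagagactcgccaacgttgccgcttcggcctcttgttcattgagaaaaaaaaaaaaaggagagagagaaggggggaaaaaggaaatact
Etv5: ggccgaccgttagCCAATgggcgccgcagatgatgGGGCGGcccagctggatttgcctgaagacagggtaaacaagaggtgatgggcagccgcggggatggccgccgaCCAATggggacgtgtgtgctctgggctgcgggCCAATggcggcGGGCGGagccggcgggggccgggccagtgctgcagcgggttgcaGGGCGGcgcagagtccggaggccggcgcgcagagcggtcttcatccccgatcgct

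The 4 promoters differed in these letters. The Fgf4 stretch held a TATATA match that begins 30 bases before the start, overlapped by a second one that begins at 28 bases, and such a match was present in 5.25% of the 32851 stretches of this length in the table. It also held 1 CCAAT and 2 GGGCGG matches. The Dusp6 stretch held 1 CCAAT match, beginning 46 bases before the start. The Etv5 stretch held 3 CCAAT and 3 GGGCGG matches, and the Spry2 stretch held none of the 4 motifs. CCAAT was present in 33.8% and GGGCGG in 32.7% of all stretches. CCGGAA, present in 12% of them, matched in none of these 4. All 4 held more CpG dinucleotides than the median stretch, with 21 in Fgf4, 16 in Dusp6, 23 in Spry2 and 27 in Etv5 against a median of 6. These matches describe the letters and are not binding sites. Spry4 and Etv4 have no entry in that table.

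A peak row of every library covered the annotated start of every gene, 36 of 36 cases, where the start was covered in all 6 libraries at 43.2% of 17492 protein-coding genes. In 35 of the 36 the covering row had a deposited q-value of 0.01 or less, the exception being Etv4 in the first SPT5 library. That library had the fewest ChIP tags of the 6, 27324697 against 62312558 in the second SPT5 library. Whether depth bears on the exception was not tested. The start was covered at a q-value of 0.01 or less in all 6 libraries at 5 of the 6 genes, against 28% of the 17492. Those 17492 genes have a start in the promoter table, which holds neither Etv4 nor Spry4, which is among the 5. For these genes the gene's end stood in as the start. In all, 48 of the 165 member rows passed that threshold. By library these were 8 of 29 and 7 of 34 rows for NELFB:HA, where 2.97% and 1.85% of all rows of the lists passed. They were 11 of 26 and 10 of 30 for NELFE, against 5.52% and 5.42%, and 5 of 22 and 7 of 24 for SPT5, against 1.51% and 6.08%. The windows were placed on genes, whereas the lists cover the genome, so the shares are not those of comparable windows.

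**Figure D1:**
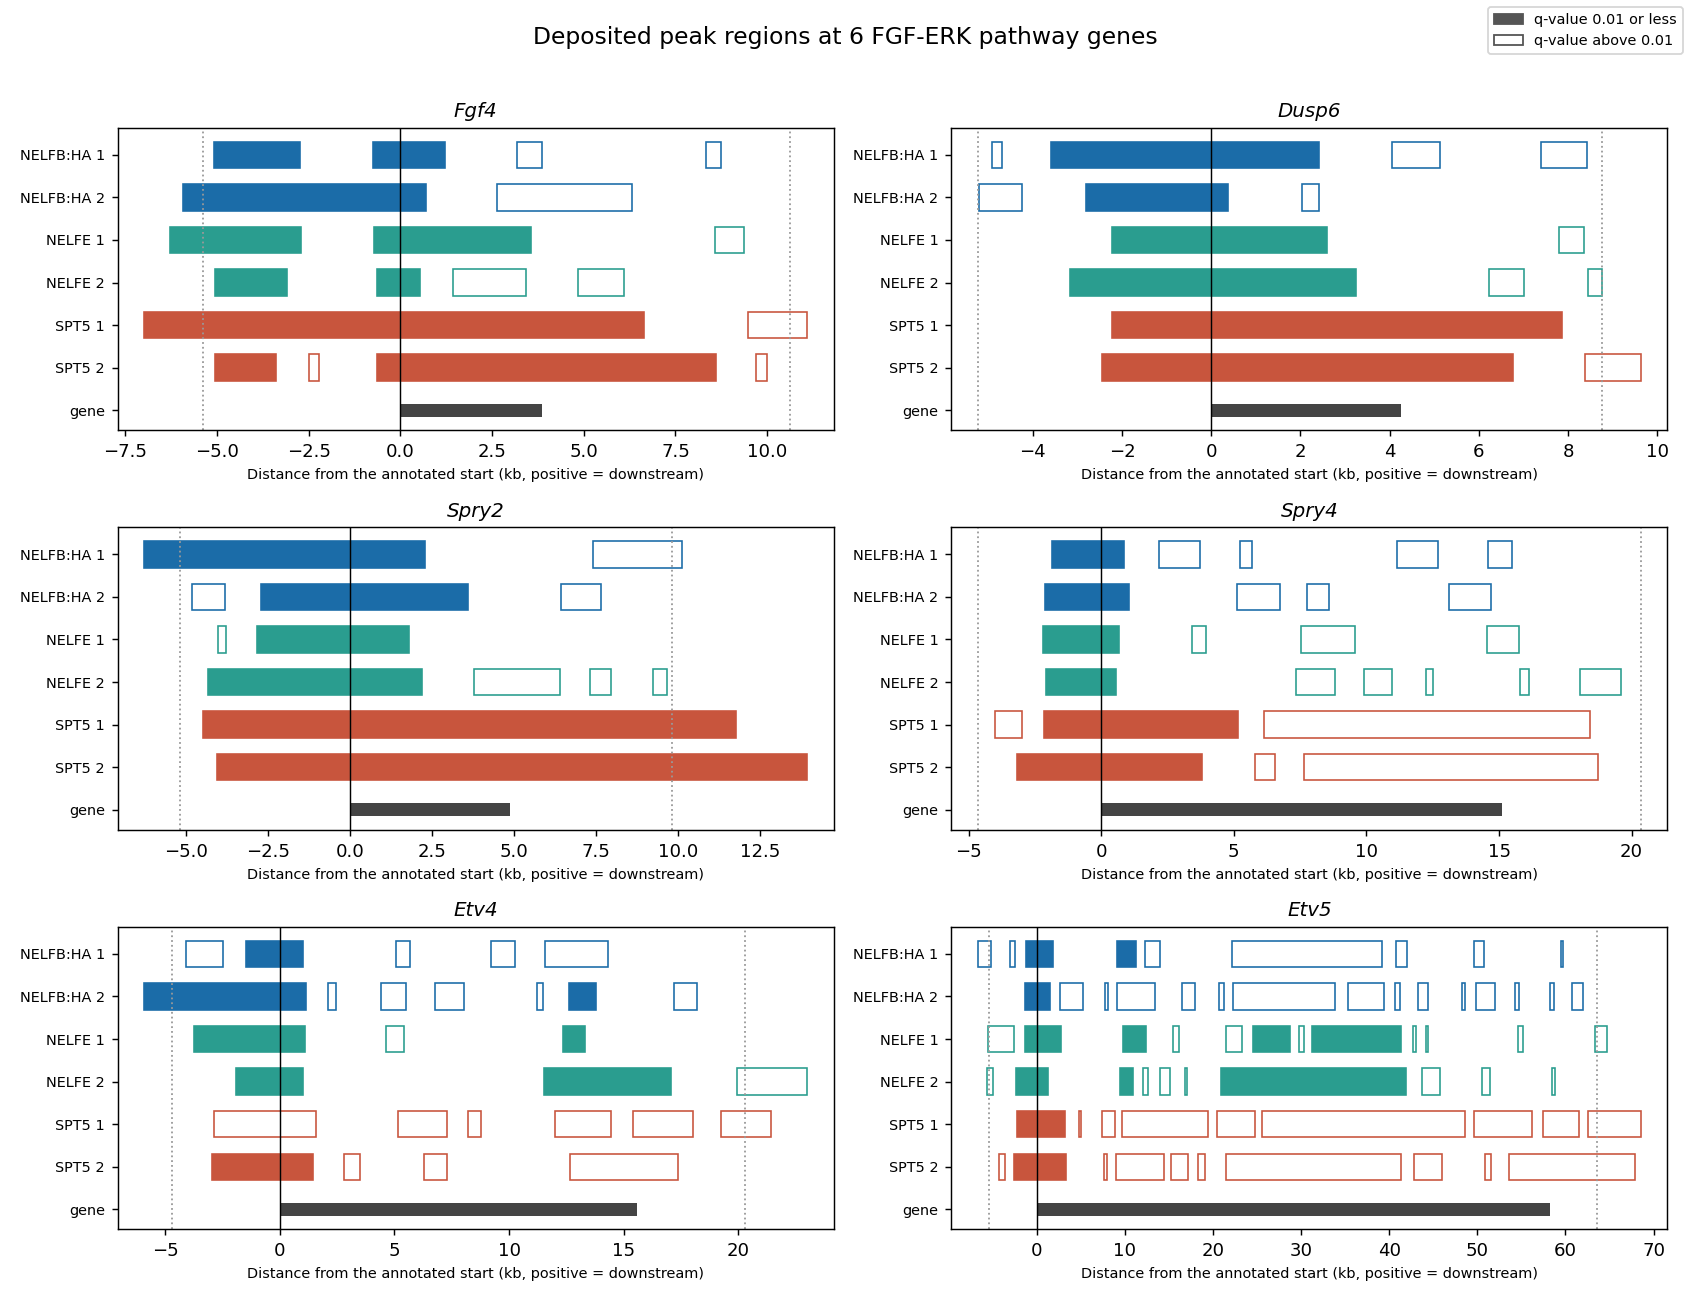
Deposited peak regions of the 6 libraries at each gene, by distance from the annotated start in kb along the direction of transcription. Filled bars have a q-value of 0.01 or less and open bars a higher one, the dark bar is the gene and dotted lines are the window's edges. Every library has a bar across every start, and the SPT5 bars over the starts reach further downstream than the NELF bars there.

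The row with the highest pileup (ChIP coverage, as the peak caller gives it for a region) in each window was among the highest 5% of its whole list in all 36 cases and among the highest 1% in 21, levels set with these values already known. No share over all genes stands beside these counts. Rows with a q-value of 0.01 or less made up 1.51% to 6.08% of each list. The highest row of the window covered the start in 34 of 36 cases. Both exceptions were at Fgf4, where a region upstream of the gene had a higher pileup than the start in the first NELFE and the second SPT5 library. By the median over 6 libraries, Etv5 stood highest, at the top 0.521% of the list, followed by Spry2 at 0.579%, Dusp6 at 0.786%, Fgf4 at 0.878%, Spry4 at 1.98% and Etv4 at 2.15%. Spry4 and Etv4 were thus the lowest of the 6, although neighbouring genes in this order overlapped in their values by library. Most rows of these lists are weak. Among rows with a q-value of 0.01 or less alone, the median position of the leading region was the top 14.8% for Etv5, 15.3% for Dusp6, 19.5% for Spry2, 32.1% for Fgf4, 45.7% for Spry4 and 66.8% for Etv4. The Etv4 median rests on 5 libraries, since the first SPT5 library had no such row there. Among these stronger rows, the 6 genes therefore lay from the upper part of the list to below its middle.

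**Figure D2:**
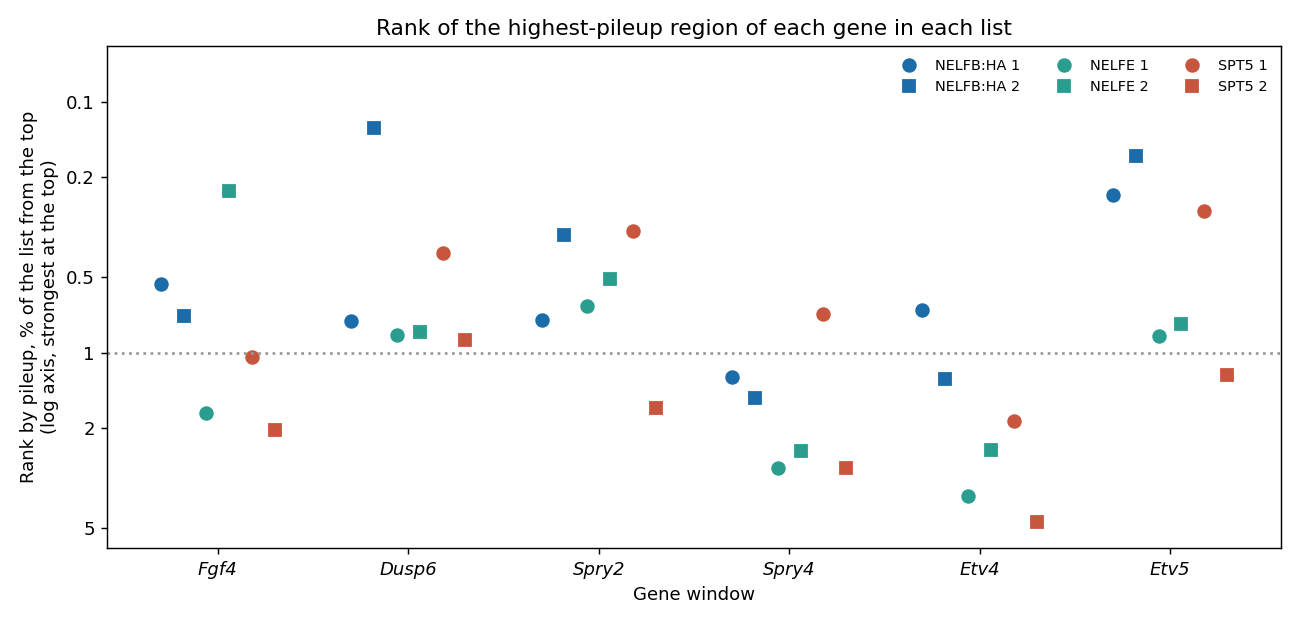
Position of the highest-pileup region of each gene in each library's own list, as a percent from the top on a log axis with the strongest at the top. Each point is 1 library. All points lie within the top 5%, and those of Spry4 and Etv4 are the lowest as a group.

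Fgf4, the ligand gene (RefSeq gene 14175, plus strand, chromosome 7 from 144861386 to 144865245, 3860 bp), carried 2 separate strong sites in 4 of the 6 libraries. The region over the start ran from 144860650 to 144862611 in the first NELFB:HA library, with a fold enrichment over input of 6.89. It ran from 144860667 to 144864960 (fold 4.42) and from 144860741 to 144861908 (fold 14.7) in the NELFE libraries. The value of 14.7 was the highest fold of any member row, and that row ranked 491 by pileup of 217115. Folds and ranks are the authors' own values within each list and were not tested between lists.

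The other strong site lay upstream of Fgf4, where the RefSeq gene table has no gene inside the window. In the first NELFB:HA library it spanned 144856316 to 144858659, which begins 5070 bp before the start, with a fold of 6.53 and rank 3466 of 343503. In the NELFE libraries it spanned 144855108 to 144858687 (fold 5.76, rank 3549) and 144856338 to 144858302 (fold 8.97, rank 2060). In the second SPT5 library it spanned 144856327 to 144857994 with a fold of 4.51 and rank 2788 of 137102, higher in pileup than the region over the start, whose fold was 3.42. In the second NELFB:HA and the first SPT5 library a single region covered both sites, of 6615 bp (fold 4.02) and 13642 bp (fold 3.41). The upstream site was thus covered at a q-value of 0.01 or less in all 6 libraries. Downstream, both SPT5 libraries covered 100% of the gene and went on past its end by 2795 and 4754 bp, whereas the NELF regions over the start ended within the gene.

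Dusp6, the ERK phosphatase gene (RefSeq gene 67603, plus strand, chromosome 10 from 99263231 to 99267489, 4259 bp), had 1 strong region per library. In the NELFB:HA libraries it spanned 99259640 to 99265652 (6013 bp, fold 7.37, rank 2563 of 343503) and 99260423 to 99263611 (3189 bp, fold 7.76, rank 571 of 447756). In the NELFE libraries it spanned 99260998 to 99265832 (4835 bp, fold 8.79, rank 1737 of 203679) and 99260065 to 99266479 (6415 bp, fold 7.46, rank 1794 of 217115). In the SPT5 libraries it spanned 99261019 to 99271099 (10081 bp, fold 3.97, rank 1851 of 462153) and 99260781 to 99269994 (9214 bp, fold 4.28, rank 1219 of 137102). The folds lay close together within each antibody. The NELF regions began well before the start: 3591 and 2808 bp for NELFB:HA and 2233 and 3166 bp for NELFE. Both SPT5 regions covered the whole gene and ran 3610 and 2505 bp past its end. The noncoding gene Gm34921 lies there on the opposite strand, from 99266864 to 99270899, so the signal past the end cannot be assigned to Dusp6 alone.

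Spry2, a Sprouty inhibitor gene (RefSeq gene 24064, minus strand, chromosome 14 from 105891947 to 105896819, 4873 bp), had longer start-covering SPT5 regions than the other genes. In the SPT5 libraries a single region of 16224 bp (105885077 to 105901300, fold 3.46, rank 1508) and of 17967 bp (105882895 to 105900861, fold 3.02, rank 2275) covered the whole gene. These continued 6870 and 9052 bp past its end, where no other gene of the RefSeq table lies within the window. The NELF regions were shorter, at 8549 and 6288 bp for NELFB:HA (folds 5.04 and 4.72, ranks 2537 and 1526) and 4637 and 6506 bp for NELFE (folds 6.21 and 8.80, ranks 1325 and 1103). All 4 ended within the gene, 1812 to 3592 bp after the start.

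Spry4, the other Sprouty gene (RefSeq gene 24066, chromosome 18 from 38586247 to 38601347, 15101 bp, taken from general knowledge to lie on the minus strand), had a compact NELF region at its start and a longer SPT5 region. The NELF regions were 2720 and 3149 bp long for NELFB:HA (folds 3.40 and 2.68, ranks 4296 and 6751) and 2867 and 2638 bp for NELFE (folds 3.99 and 5.80, ranks 5860 and 5318). The SPT5 regions over the start were 7283 and 6960 bp (folds 2.68 and 2.48, ranks 3230 and 3956). Weaker SPT5 rows of 12286 and 11091 bp followed further into the gene, with folds of 1.97 and 1.76 that missed the q-value of 0.01. Counting rows of any strength, 93.4% and 79.5% of the gene was covered by SPT5, against 32.5% and 33.9% for NELFB:HA and 25.1% and 22.0% for NELFE. The annotation of the neighbour Arhgap26 comes within 270 bp of the Spry4 start, inside all 6 of these regions, so the signal at the start cannot be divided between the genes.

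Etv4, an ETS factor gene (RefSeq gene 18612, chromosome 11 from 101769747 to 101785310, 15564 bp, taken from general knowledge to lie on the minus strand), had the weakest SPT5 signal of the 6. Its start-covering regions had folds of 2.11 and 2.45 in the SPT5 libraries (ranks 8637 and 6444), and the −log10 q-value of 1.29 in the first of them missed the threshold of 0.01. NELFB:HA gave folds of 6.10 and 2.64 (2485 and 7050 bp, ranks 2326 and 5678), a wide spread between libraries of 1 antibody. NELFE gave folds of 3.15 and 4.56 (4827 and 2902 bp, ranks 7599 and 5279). The annotation of the noncoding gene Gm39392 comes within 11 bp of the Etv4 start, so this signal too cannot be assigned to 1 gene. A second site lay toward the far end of Etv4. It passed the q-value of 0.01 in the second NELFB:HA library (1177 bp, fold 2.68) and in the NELFE libraries (924 bp, fold 3.20, and 5535 bp, fold 2.75), and in neither SPT5 library. Weaker rows that missed this threshold lay over the site in the first NELFB:HA library (fold 2.24) and in the SPT5 libraries (folds 2.12 and 1.75). The 5535 bp row ran 1503 bp past the end of Etv4, toward the end of the neighbouring gene Dhx8 at 101767358. That row cannot be assigned to Etv4 alone.

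Etv5, the other ETS factor gene (RefSeq gene 104156, minus strand, chromosome 16 from 22381313 to 22439570, 58258 bp), had a compact strong region at its start and a long weak one far inside the gene. At the start the folds were 8.55 and 5.56 for NELFB:HA (3031 and 2819 bp, ranks 809 and 738), 7.18 and 7.17 for NELFE (3999 and 3645 bp, ranks 1749 and 1673) and 3.57 and 3.29 for SPT5 (5360 and 5946 bp, ranks 1259 and 1680). A smaller site 9 to 12 kb inside the gene passed the q-value of 0.01 in the first NELFB:HA library (2169 bp, fold 3.14) and in both NELFE libraries (2585 bp, fold 3.24, and 1442 bp, fold 2.73). Weaker rows that missed this threshold overlapped it in the second NELFB:HA library (fold 1.99) and in both SPT5 libraries (fold 2.00 in each).

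The long region lay between about 21 and 42 kb downstream of the Etv5 start. In the second NELFE library it was a single row of 20992 bp (22397651 to 22418642, fold 2.91), the longest of all 217115 rows of that list. In the first NELFB:HA library a row of 17091 bp (22400338 to 22417428, fold 2.37) was likewise the longest of 343503. The other NELF libraries had shorter rows there: 10075 bp in the first NELFE library, the 14th longest of its list, and 11561 bp in the second NELFB:HA library, the 38th longest. In the SPT5 lists, where long rows are common, the longest rows over the gene were 23009 and 19881 bp, ranked 77 and 134 by length. Rows of any strength covered 86.8% and 79.0% of the 20992 bp in the NELFB:HA lists, 79.9% and 100% in the NELFE lists, and 95.98% and 94.7% in the SPT5 lists, so all 3 factors were listed over this stretch. At a q-value of 0.01 or less NELFE alone remained, at 68.2% and 100%. The longest NELFB:HA row had a −log10 q-value of 1.96, just short of the 2 that a q-value of 0.01 equals.

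The length covered at a q-value of 0.01 or less compared the antibodies within each window. At Fgf4 the NELFB:HA libraries covered 4306 and 6075 bp, the NELFE libraries 6982 and 3133 bp, and the SPT5 libraries 12041 and 10931 bp. At Dusp6 the lengths were 6013 and 3189 bp, 4835 and 6415 bp, and 10081 and 9214 bp in the same order. At both genes the SPT5 libraries lay above all 4 NELF libraries, which overlapped each other. At Spry2 the SPT5 libraries covered 14301 and 13862 bp, and the NELF libraries between 4637 and 7464 bp. At Spry4 the SPT5 libraries covered 7283 and 6960 bp, and the NELF libraries between 2638 and 3149 bp. The mean SPT5 minus NELFE difference was 6428.5 bp at Fgf4 (pooled SD 2003), 4022.5 bp at Dusp6 (901), 8510 bp at Spry2 (960) and 4369 bp at Spry4 (198).

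At the ETS genes SPT5 covered less than NELFE at this threshold. At Etv4 SPT5 covered 0 and 4378 bp, NELFB:HA 2485 and 7008 bp and NELFE 5751 and 8437 bp, a mean SPT5 minus NELFE difference of −4905 bp (pooled SD 2568). At Etv5 NELFE covered 20893 and 26079 bp, above both NELFB:HA (5200 and 2819 bp) and SPT5 (5360 and 5946 bp). SPT5 lay above both NELFB:HA libraries there, with a mean difference of 1643.5 bp (pooled SD 1226). The mean SPT5 minus NELFE difference there was −17833 bp (pooled SD 2609.5), and NELFB:HA minus NELFE was −19476.5 bp (pooled SD 2853). These Etv4 and Etv5 directions rest on the threshold. With rows of any strength the SPT5 minus NELFE difference was 4365.5 bp at Etv4 and 22285.5 bp at Etv5. The size at Spry4 rests on the threshold too. At a q-value of 1e-05 or less, SPT5 minus NELFE there fell to 727.5 bp (pooled SD 3482). The first SPT5 library, the one with the fewest ChIP tags, had no row of that strength at Spry4.

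Of the 18 differences between antibodies, 12 had groups that did not overlap and 13 exceeded the pooled SD. No share over all gene windows stands beside these counts, so they are not read as a trait of these genes. Each of the 12 gave a two-sided exact permutation p of 0.33 (Benjamini-Hochberg adjusted p of 0.5), the smallest that 2 libraries against 2 allow, so no difference could pass a threshold of 0.05. The SPT5 libraries were sequenced with 100 and 101 bp tags and share 1 input, and the NELF libraries with 50 bp tags and an input each. Antibody and sequencing batch therefore cannot be told apart in any comparison with SPT5, and no within-batch value exists.

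**Figure D3:**
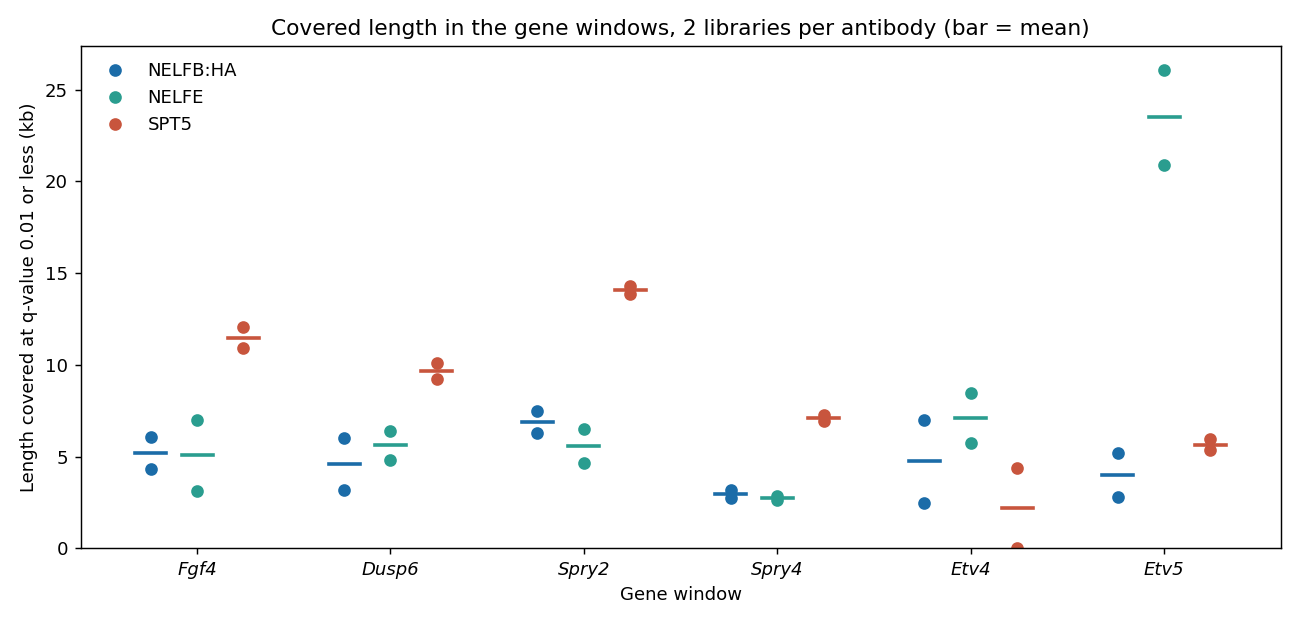
Length covered by regions with a q-value of 0.01 or less in each gene's window, in kb. Points are the 2 libraries of each antibody and bars their mean. SPT5 lies above every NELF library at Fgf4, Dusp6, Spry2 and Spry4, and at Etv5 NELFE lies above SPT5, which lies above NELFB:HA.

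Strong peaks of the 6 lists that share bases were also merged, which gave 13088 regions genome-wide and 9 in the windows. Of the 9, 5 held a q-value 0.01 peak in all 6 libraries, or 55.6%, against 44.9% of all merged regions. These 5 were the regions over the starts of Fgf4, Dusp6, Spry2, Spry4 and Etv5. The Etv4 start region and the 3 others, which overlap Etv4 or Etv5 away from their starts, lacked a strong peak in at least 1 library. SPT5 covered more than every NELF library at 5 of the 9, the same 5, against 12.7% of all merged regions and 24.5% of those with a peak in all 6 libraries. It covered less than every NELF library at 0 of 9, against 9.93%. NELFB:HA covered more than both NELFE libraries at 0 of 9, against 14.1%, and less at 2 of 9, against 16.6%. Both of these lay at Etv5, over the start and over the long region inside the gene.

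How far a start-covering region reached was measured on each side of the start, a measure added with the data in view. At the 5 genes whose start was covered at a q-value of 0.01 or less in all 6 libraries, both SPT5 regions reached further downstream than all 4 NELF regions in 5 of 5. The share was 25.3% of the 4905 protein-coding genes covered in that way, a set without Spry4, which has no start in the promoter table. Etv4 showed the same order with rows of any strength, at 1563 and 1433 bp against 998 to 1140 bp, a small margin. Upstream, SPT5 reached further than every NELF library at 0 of 5, against 13.4% of those genes. The reach downstream in the SPT5 libraries was 11742 and 13924 bp at Spry2, 7868 and 6763 bp at Dusp6 and 6654 and 8613 bp at Fgf4, where the medians of the 4905 genes were 1625 and 1358 bp. It was 5144 and 3793 bp at Spry4 and 3153 and 3328 bp at Etv5.

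At Dusp6, upstream reach was long in the NELF libraries. There it exceeded that of 96.2% and 87.9% of the 4905 genes in the NELFB:HA libraries and of 91.4% and 96.1% in the NELFE libraries. At Spry2 the corresponding percentages were 99.4% and 86.9% for NELFB:HA and 95.7% and 98.6% for NELFE. Upstream reach was also long for SPT5, at 76.6% and 86.3% for Dusp6 and 93.5% and 94.0% for Spry2. The NELF libraries at Etv4 ranged from 69.3% to 98.9%. Downstream, the NELF regions of Spry4 reached 875 and 1042 bp for NELFB:HA and 654 and 552 bp for NELFE, each below the median of its library. At Spry2 the NELF reach downstream exceeded that of 85.5% and 92.8% of the genes for NELFB:HA and 83.7% and 85.7% for NELFE. At Dusp6 these percentages were 87.4% and 5.52% for NELFB:HA and 93.8% and 95.6% for NELFE. At Fgf4 and Etv5 the first NELFE library stood highest of the NELF libraries, at 97.9% and 94.5%. The other NELF libraries stood at 16.4% to 56.5% at Fgf4 and at 60.3% to 75.9% at Etv5. Long downstream reach was thus not confined to SPT5 at Spry2, nor at Dusp6 outside the second NELFB:HA library.

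**Figure D4:**
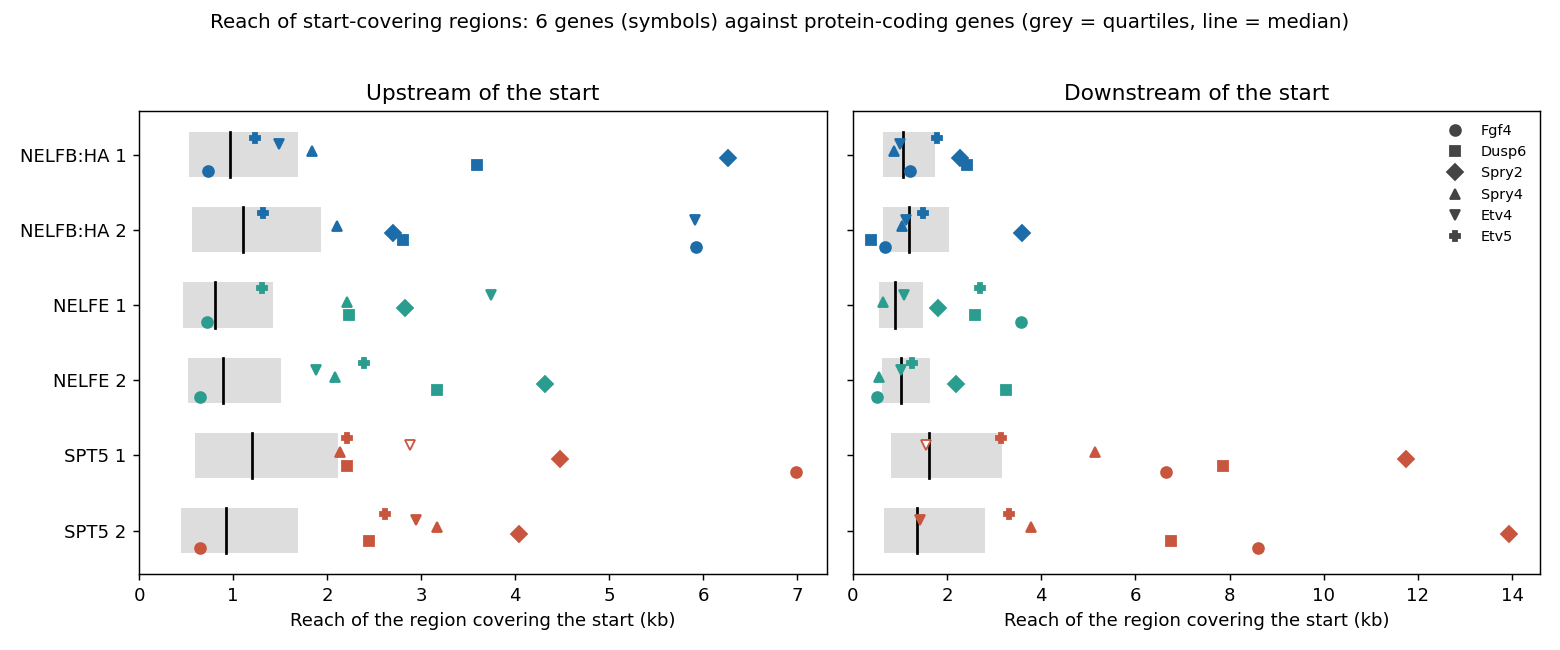
Reach in kb of the region covering the annotated start, upstream (left) and downstream (right), for each library. Symbols are the 6 genes (open where the q-value is above 0.01), grey bars the quartiles and black lines the median of 4905 protein-coding genes. Downstream, both SPT5 values of Spry2, Dusp6, Fgf4 and Spry4 and 1 of Etv5 lie to the right of the grey bars.

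The rest of the pathway was read from a list of 49 further genes, of which 37 have a start in the promoter table. Of these, 21 had a q-value 0.01 peak within 1 kb of a start in all 6 libraries, 8 in some and 8 in none, where 29.4% of 17492 protein-coding genes had one in all 6 and 51.1% in none. The negative feedback genes had such a peak in all 6 libraries in 7 of 9 cases, among them Dusp1 and Dusp5 (phosphatases), Spry1 (a Sprouty), Spred1 and Spred2 (Sprouty-related inhibitors), Il17rd (a membrane inhibitor of FGF signalling) and Errfi1 (an inhibitor of EGF receptor signalling). Dusp7 and Spred3 had none. Of the transcription factors and early targets 6 of 7 had one, Etv1, Elk1, Elk4, Srf, Fos and Ier3, and Elk3 had none. Among the kinase cascade genes 4 of 8 had one in all 6 libraries (Map2k1, Map2k2, Ksr1 and Rps6ka1) and the other 4 in 4 or 5 libraries. The adaptors had one in 3 of 8 cases (Frs2, Ptpn11 and Shc1), and Grb2 and Sos2 had none at the starts used. Of the receptors Fgfr2 had one in all 6 libraries, Fgfr4 in the 4 NELF libraries alone, and Fgfr3 and the co-receptor gene Klb in none. The ligand Fgf5, known for its rise after exit from the naive state, had none. By mean pileup percentile the highest 5 of the 37 were Map2k2 (99.95), Elk4 (99.9), Errfi1 (99.8), Dusp1 (99.5) and Dusp5 (99.2), beside 99.4 for Etv5 and Dusp6, 99.3 for Spry2 and 98.8 for Fgf4.

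Among genes that mark embryonic stem cells, 5 of 7 had such a peak in all 6 libraries (Pou5f1, Sox2, Klf4, Zfp42 and Tdgf1), Nanog in 2 and Esrrb in none at the starts used. Of 4 genes of other cell types with a start in the table, T, Pax6 and Col1a2 had none and Sox1, a neural gene, had one in 4 libraries. Factor binding at a start is not expression, and the label was checked no further.

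For each gene, the merged region elsewhere whose covered lengths were most alike over the 6 libraries was found among 5868 regions, by the mean absolute difference in log2 covered length. For Fgf4 it overlapped Hnrnpdl and Enoph1 (difference 0.19), for Dusp6 Cyc1, Sharpin and Maf1 (0.13), and for Spry2 Rbpj (0.13). For Spry4 it overlapped Nr0b1 (0.08), for Etv5 Oxsr1 (0.12), and for Etv4 Poglut1 (0.86). The Etv4 pattern, with its missing SPT5 peak in 1 library, thus had no close match in this set, which required a peak in all 6 libraries.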

How the data were processed

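Deposited MACS 2.1.1.20160309 broad peak lists of 6 control libraries were used, 1 list per library, called against an input without pooling replicates, per the file headers. Bowtie2, deepTools and MACS2 and the build mm10 are named in the submitters' processing notes. Strong regions have a p-value cutoff of 0.01 and the weak regions that join them 0.1, per the file headers. Filtered tags ranged from 27324697 to 62312558 per library. The deposited pileup is a coverage signal, with the larger of ChIP and input scaled towards the smaller, and the deposited fold enrichment is a ratio over the local background, per the file headers. The deposited −log10 p-values and q-values are given per region, and the headers do not say how they were summarised over it. Although the headers announce no q-value calculation, the deposited q column is filled and was taken as it stands. Lengths (a column with no scale of its own) are in bp, and coordinates count from 1.

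Covered length was summed with pandas 2.3.3 over rows with a q-value of 0.01 or less, clipped to the window. Rows with a q-value of 0.01 or less that share at least 1 bp were merged over the lists. A gene's leading merged region was the one with the highest mean pileup percentile. Starts are the outermost of RefSeq's promoter table, and for Spry4 and Etv4 the gene's end. Differences were tested with exact permutation tests in scipy 1.17.1, with Benjamini-Hochberg adjustment over 18. Interval code was tested on simulated data. All 6 genes are named, each with the merged region most like it in log2(covered bp + 100), and of other pathway genes the 5 highest and those without a peak. The genes, lists and measures were chosen with earlier results of these data known. First and second library follow the numbers in the titles, whereas in the headers both NELF pairs carry 2 and 3. Same-numbered libraries did not deviate together (correlations of −0.0145 to −0.00596 over 5873 merged regions). No replicate lists shared an identical row.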

Additional observations from a re-analysis of the deposited data

How the results depend on the processing

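With 2 libraries per antibody 0.33 was the lowest p any exact permutation test could give, and stability cannot be read from the tests. Same-numbered libraries did not deviate together, which does not settle whether the numbers pair them. Of 54 recomputed counts of genes, 47 stayed within 1.5 times the value reported and 7 did not. With rows of any strength, NELFB:HA coverage was above every NELFE library at 1 gene and higher on average at 5. Leaving out a replicate number, which puts 1 library against 1, gave 2 to 3 genes for the first of these. With the replicate block, requiring both same-numbered differences to be positive, NELFB:HA exceeded NELFE at 0 genes, SPT5 exceeded NELFB:HA at 5 and NELFE at 4. This pairing uses the numbers in the titles; by the file headers the NELF libraries are 2 and 3 and the SPT5 libraries 1 and 2, which leaves too few shared numbers for a block with SPT5. Requiring 50% of the leading merged region to be covered in every library left 0 genes. Among rows with a q-value of 0.01 or less alone, 0 genes had their leading region in the top 5% of every list.

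Of 96 recomputed SPT5 minus NELF covered lengths, 5 changed sign, all at Etv4 and Etv5. At Spry4 none changed sign, but they shrank with the q-value threshold at 1e-05. SPT5 minus NELFB:HA was then 2120 bp (pooled SD 3736) and SPT5 minus NELFE 727.5 bp (pooled SD 3482). With rows of any strength the Etv4 differences were 2089 bp for NELFB:HA minus NELFE, 2276.5 bp for SPT5 minus NELFB:HA and 4365.5 bp for SPT5 minus NELFE, and the Etv5 differences were 637 bp for NELFB:HA minus NELFE and 22285.5 bp for SPT5 minus NELFE. With the 10000 rows of highest −log10 p-value of each list, NELFB:HA minus NELFE was 420 bp and SPT5 minus NELFE 82.5 bp at Etv4, and SPT5 minus NELFE 7407.5 bp at Etv5. NELFB:HA minus NELFE also changed sign at Spry4 (−1392.5 bp with the q-value threshold at 1e-05) and at Fgf4 (−43 bp with windows widened by 5 kb). Leaving out a replicate number gave NELFB:HA minus NELFE values from −2676 to 2942 bp at Fgf4, −3226 to 1178 bp at Dusp6, −218 to 2827 bp at Spry2 and −147 to 511 bp at Spry4, so no direction between the NELF subunits was stable at these 4 genes. The cause was not tested.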
